A study of Mus musculus with 12 samples.

Results

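To learn what excess glucose does to gastruloids at the level of transcripts, libraries of gastruloids kept in 3X glucose (63.75 mM) were compared with libraries of gastruloids kept in 1X glucose (21.25 mM). The comparison takes 6 of the 12 libraries of the study, chosen by their labels, with 3 in each group. Gastruloids are aggregates of embryonic stem (ES) cells that form mesoderm and neural tissue and elongate along 1 axis in culture. All groups were made from the mouse ES cell line E14TG2a, and were treated from day 3 to day 4 and harvested on day 4. The labels give 2iLIF for every library, a medium for the ES cells with a Wnt agonist, an ERK antagonist and LIF. By the methods of the study, all gastruloids also received the Wnt agonist before day 3. In the remaining 6 libraries the medium held no glucose (0X, 3 libraries) or 5 mM 2-deoxy-D-glucose (2-DG, a glucose analog that cannot pass through glycolysis) in 1X glucose (3 libraries). ES cells of passages 13, 15 and 16 gave 1 library each to every group. Each library is polyA RNA of many pooled gastruloids, and all come from 1 ES cell line. No group received another solute at the same concentration, so the sugar and the osmotic load of 3X glucose cannot be told apart. Passages 13, 15 and 16 are the replicates, and the methods of the study count 3 biological replicates per treatment. As the labels do not say whether the passages were grown and treated separately, the p-values measure only the spread between these libraries.

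Libraries held 38439471 to 45956080 counts in 1X glucose and 33336139 to 40744645 counts in 3X glucose. Libraries of 1 passage deviated together from their group means, with a correlation across genes of 0.583, 0.332 and 0.269 for passages 13, 15 and 16, against at most 0.157 between different passages. The passage was therefore a block in every fit. Passage 13 stood apart from the others in both groups, for example with Sox2, a neural progenitor and stem cell factor, at 120.3 CPM (counts scaled to the size of the library) in 1X glucose, against 43.3 and 42.1 CPM in passages 15 and 16. The libraries carried the markers of posterior mesoderm at high levels, with T between 167 and 330 CPM and Tbx6 between 194 and 266 CPM over the 6 libraries. The extraembryonic genes Ttr and Afp were at 0 in all 6, while Elf5, Apoa1 and Hnf4a reached at most 0.324, 0.132 and 0.132 CPM. Of the 13 genes in the extraembryonic list, 5 passed the filter on low counts, and the genes just given were not among them. Those that passed had log2 fold changes of 3X against 1X glucose from -0.33 (Amn) to 0.55 (Tfap2c). The markers given thus do not stand for the whole list. The fibroblast genes Dcn, Lum and Postn reached at most 0.216 CPM. Other genes of the fibroblast list were present, with Thy1 at 5.71 to 8.07 CPM, Col1a2 at 1.83 to 4.11 CPM, Col3a1 at 1.33 to 3.75 CPM and Col1a1 at 0.421 to 0.696 CPM. In what follows, triplets of values are in CPM after TMM scaling and in the order of passages 13, 15 and 16.

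Glucose enters cells through transporters of the Slc2a family and is phosphorylated on its way into glycolysis, the pentose phosphate pathway, the hexosamine pathway and glycogen. Cells also read the level of phosphorylated glucose through the transcription factors MondoA (gene Mlxip) and ChREBP (gene Mlxipl), which bind DNA together with Mlx. Their best known target is Txnip, an arrestin that limits glucose uptake, followed by its relative Arrdc4. The DNA element through which these factors act is a pair of E boxes separated by 5 bases. The promoters of Txnip and Arrdc4 are shown because both genes were higher in 1X glucose than without glucose and no higher in 3X glucose. Klf10, described below, had the same pattern, but its promoter had no entry in the sources used here. The sequences are the 250 bases before the start site in RefSeq on GRCm38.p6, read on the strand of the gene, with the motif in capitals. That of Txnip is chr3:96557707-96557956 on the plus strand and that of Arrdc4 is chr7:68749239-68749488 on the minus strand.
Txnip: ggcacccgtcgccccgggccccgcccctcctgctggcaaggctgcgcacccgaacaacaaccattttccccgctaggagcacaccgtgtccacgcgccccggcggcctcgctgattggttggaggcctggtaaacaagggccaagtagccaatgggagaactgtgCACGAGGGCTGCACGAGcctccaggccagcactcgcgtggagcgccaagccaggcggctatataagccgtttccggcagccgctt
Arrdc4: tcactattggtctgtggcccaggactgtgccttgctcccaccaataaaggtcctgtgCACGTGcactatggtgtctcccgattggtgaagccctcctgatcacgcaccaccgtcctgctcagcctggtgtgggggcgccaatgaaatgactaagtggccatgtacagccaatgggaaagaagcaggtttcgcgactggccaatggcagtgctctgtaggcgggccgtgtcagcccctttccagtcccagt
The Txnip promoter held the paired motif, which is 2 copies of CACGNG with any 5 bases between them, and it began 85 bases before the start site. Searched on both strands, the pair was found in 15 of 32851 promoters of the same length (0.0457%). The Arrdc4 promoter did not hold it in this window, but held the single E box CACGTG, which began 193 bases before the start site and was found in 1978 promoters (6.02%). A pair may hold single E boxes, so that the motifs can overlap. These matches describe letters in the promoter and not binding.

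Excess glucose left the transcriptome within narrow limits. Of 16966 genes tested with edgeR's quasi-likelihood test and the passage as a block, 0 differed between 3X and 1X glucose at an adjusted p under 0.05 (0%). The unadjusted p was under 0.05 for 876 genes (5.16%), of which 497 were higher and 379 lower in 3X glucose. In other fits, 6 genes were called by DESeq2, 1 by limma-voom, 3 by edgeR on the 6 libraries alone and 1 by edgeR on the 9 libraries without 2-DG. The absence of calls does not by itself bound the effect, and for this reason every gene was also tested for equivalence with 2 one-sided tests. The ratio of 3X to 1X glucose was shown to lie within 2-fold for 15291 genes (90.1%) and within 1.5-fold for 13075 genes (77.1%). The median absolute log2 fold change was 0.064 with a median standard error of 0.082. For the median gene, the 95% interval allowed a change of at most 0.26 on the log2 scale, or 1.19-fold. In bulk RNA, fewer cells of a type and less RNA per cell cannot be told apart, so that these bounds are on the RNA of the whole aggregate.

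**Figure D1:**
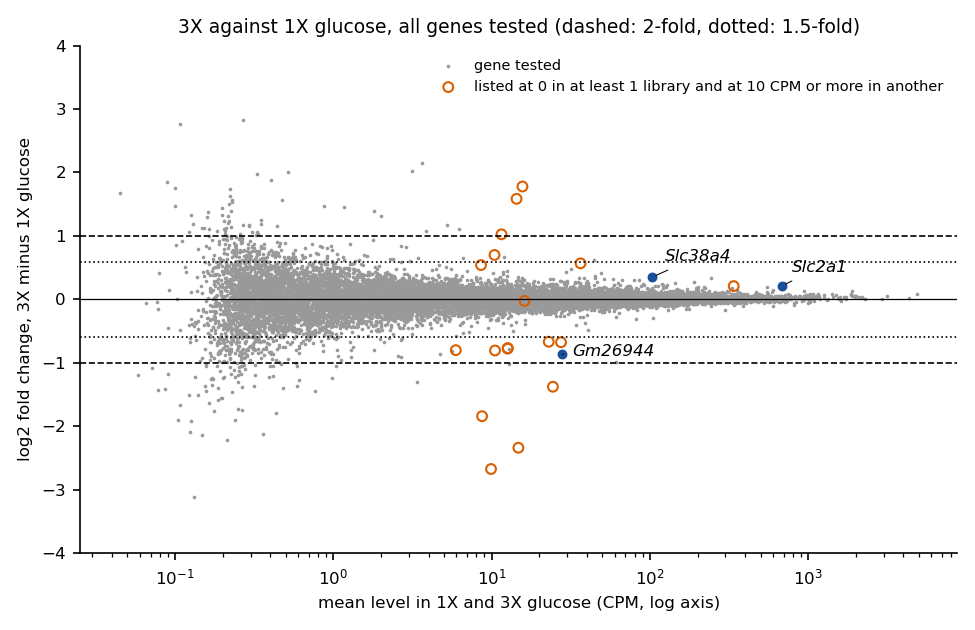
Log2 fold change of 3X against 1X glucose (vertical axis) by mean level in the 6 libraries (horizontal axis, CPM on a log scale). Each point is 1 of the 16966 genes tested, with dashed lines at 2-fold and dotted lines at 1.5-fold. Genes beyond the ends of the vertical axis, or at 0 in all 6 libraries, are not drawn. The cloud narrows as the level rises, and most points far from 0 at 10 CPM or more are circled genes that are listed at 0 in at least 1 library; filled points mark Gm26944, Slc38a4 and Slc2a1.

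How tightly a gene was bounded followed its level. Among the 927 genes under 0.3 CPM, 15.1% were shown to lie within 2-fold and 0% within 1.5-fold. Among the 2346 genes from 0.3 to 1 CPM the shares were 68.9% and 11.3%. From 1 to 3 CPM the shares were 95.5% and 67.1%, and from 10 to 30 CPM they were 99.2% and 97.5%. From 30 to 100 CPM they were 99.8% and 99.3%, and at 100 CPM or more 100% and 99.9%. Counts of bounded genes in the lists below depend on the level of their members and are to be read beside these shares. At a mean of 10 CPM or more, 98.9% of the 9777 genes had a fitted log2 fold change between -0.25 and 0.25.

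**Figure D2:**
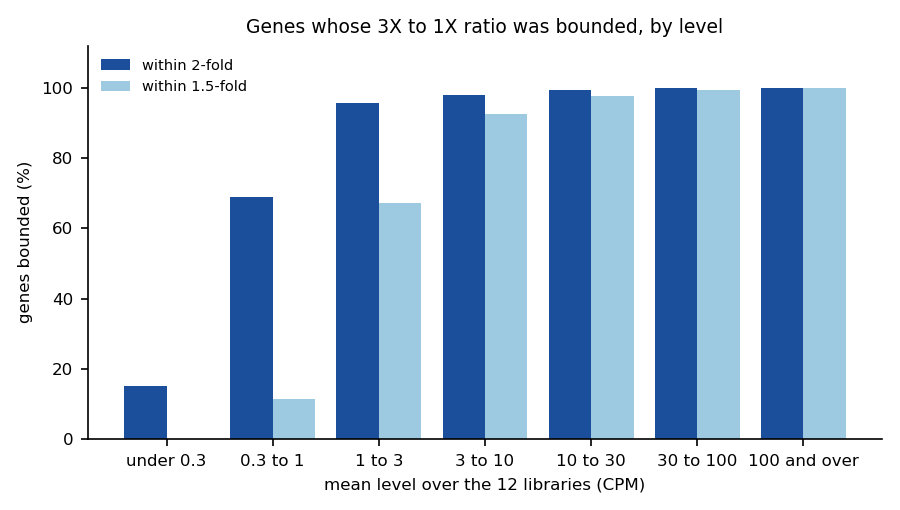
Share of genes (vertical axis, %) whose ratio of 3X to 1X glucose was shown to lie within 2-fold (dark bars) or 1.5-fold (light bars), for 7 classes of mean level over the 12 libraries (horizontal axis, CPM). The shares climb from 15.1% and 0% under 0.3 CPM to 100% and 99.9% at 100 CPM or more.

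A set of 18 genes (0.106% of those tested) gave values that jumped between libraries. They were listed at 0 counts in at least 1 of the 6 libraries and at 10 CPM or more in another, and 13 of them had a mean of at least 10 CPM. The set was formed after the values were seen, and its definition by itself favours large fitted changes and wide intervals. Gm2007 was listed at 31.7, 30.4 and 0 CPM in 1X glucose and at 0, 0 and 26.4 CPM in 3X glucose, and Gm14308 at 0, 0 and 22.3 CPM against 24.6, 22.3 and 0 CPM. The zeros fell on different passages in different genes and on both groups. Of the 7 genes with a fitted change over 2-fold at 10 CPM or more, 6 were of this kind, and so were 13 of the 32 genes that could not be bounded within 2-fold at that level. The widest intervals at 10 CPM or more belonged to Gm4631, Gm14308, Gm2007, Gm2026 and Gm14230, all in this set, and for Gm14308 the interval ran from -4.50 to 6.56 on the log2 scale. Among the 18 genes, 11 carry provisional names beginning with Gm or LOC. How the zeros arose was not tested.

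The differences within a passage were only in part alike between passages. Over the 9777 genes with at least 10 CPM, the log2 differences of 3X from 1X glucose in passage 13 had a Pearson correlation of 0.353 with those in passage 15 and of -0.454 with those in passage 16, and passages 15 and 16 gave -0.429. Without the 13 genes listed at 0 in some library, the same values were 0.264, -0.0156 and 0.398. Passage 15 thus shared a part of its pattern with either of the others, whereas passages 13 and 16 did not resemble each other. These are correlations across genes of 6 libraries, and genes are not independent. Of all genes tested, 2942 were higher in 3X glucose in all 3 passages (17.3%) and 2515 were lower in all 3 (14.8%).

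By the lowest unadjusted p among genes of at least 1 CPM that moved 1 way in all passages, the 10 higher in 3X glucose included Slc38a4, Ak1, Cldn6, Cpt1c, Slc2a1, Ablim1, Slc6a6, Igfbp5 and Grik5. The 10 lower in 3X glucose were Gm26944, Uap1l1, Arl2, Raph1, Gm33318, Arhgap45, Fam71e1, Gpcpd1, Dis3l2 and Tmem209. Apart from Gm26944 and Slc38a4, each of those named had an edgeR adjusted p of 0.905. With the most abundant transcript alone, Grik5 was lower, and Fam71e1, Gpcpd1, Dis3l2, Tmem209 and Gm26944 were higher in 3X glucose, and the choice of transcript thus sets their direction.

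Slc38a4 encodes a sodium-coupled transporter of neutral amino acids. It stood at 62.0, 101 and 108 CPM in 1X glucose and at 75.4, 139 and 134 CPM in 3X glucose. Each 3X library was above the 1X library of its passage, while the groups as a whole overlapped. The log2 fold change was 0.35 (SE 0.057, 95% interval 0.22 to 0.48), with an edgeR adjusted p of 0.739. DESeq2 gave an adjusted p of 5.92e-05 and edgeR on the 6 libraries alone 0.033, and over all alternatives the log2 fold change lay between 0.26 and 0.40. Ak1, an adenylate kinase that balances the adenine nucleotides, was at 51.5, 56.9 and 69.4 CPM in 1X glucose and at 58.0, 69.0 and 81.1 CPM in 3X glucose (log2 fold change 0.23, SE 0.040). Cldn6, a claudin of epithelial tight junctions, was at 6.65, 8.21 and 15.1 CPM in 1X glucose and at 8.01, 10.6 and 22.3 CPM in 3X glucose, which is a log2 fold change of 0.40 (SE 0.079). Raph1, which encodes the lamellipodia protein lamellipodin, was at 81.3, 135 and 133 CPM in 1X glucose and at 73.6, 103 and 106 CPM in 3X glucose. It was lower by 0.29 on the log2 scale (95% interval -0.43 to -0.14) and was called by DESeq2 with an adjusted p of 0.0195, but its value was -2.43 with the most abundant transcript alone.

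The smallest adjusted p of the comparison, 0.144 by edgeR, was that of Gm26944, a long noncoding RNA at chr7:92637161-92650027 of GRCm38.p6. Its gene total was 35.0, 40.5 and 33.2 CPM in 1X glucose and 20.5, 19.9 and 19.1 CPM in 3X glucose, without overlap. The log2 fold change was -0.86 (SE 0.11), and edgeR on the 6 libraries (adjusted p = 0.00584) or on the 9 libraries without 2-DG (0.00409) and DESeq2 (1.58e-12) called it. The gene total was the sum of 3 transcripts, and these did not move together. Its most abundant transcript was higher in 3X glucose, at 11.6, 10.02 and 15.99 CPM in 1X glucose and at 20.5, 19.9 and 19.1 CPM in 3X glucose. The second transcript stood at 23.5, 20.0 and 17.2 CPM in 1X glucose and was listed at 0 in all 3 libraries of 3X glucose. It was also listed at 0 in the 2-DG libraries of passages 13 and 16, with 29.99 CPM in that of passage 15. The gene adjoins Ankrd42 (chr7:92584183-92637142) and overlaps Pcf11 (chr7:92643458-92670080), a gene for cleavage and termination of transcripts, and use of strand in the counting is not given in the sources used here. Pcf11 stood at 97.0, 97.5 and 96.3 CPM in 1X glucose and at 99.8, 102.6 and 95.6 CPM in 3X glucose. Whether the drop in the gene total lies in the RNA or in how reads were divided between transcripts was not tested.

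Txnip, Arrdc4 and Klf10, a zinc finger factor induced by glucose, were higher in 1X glucose than without glucose, but not higher in 3X glucose. No dose between 0X and 1X glucose was measured. Txnip stood at 41.4, 33.8 and 47.9 CPM without glucose, at 97.7, 86.0 and 93.5 CPM in 1X glucose and at 96.2, 77.8 and 89.2 CPM in 3X glucose. The 1X and 3X libraries overlapped and lay above all libraries without glucose. From 1X to 3X glucose the log2 fold change was -0.077 (SE 0.083, 95% interval -0.26 to 0.11). Arrdc4 was at 34.1, 40.5 and 44.1 CPM without glucose, at 60.5, 80.0 and 73.4 CPM in 1X glucose and at 60.7, 71.9 and 68.0 CPM in 3X glucose. Its log2 fold change from 1X to 3X glucose was -0.088 (SE 0.063, 95% interval -0.23 to 0.051). Klf10 was at 29.3, 29.1 and 26.4 CPM without glucose, at 55.6, 51.1 and 53.5 CPM in 1X glucose and at 56.4, 50.7 and 50.1 CPM in 3X glucose. From 1X to 3X glucose it differed by -0.030 (SE 0.041), and its 95% interval of -0.12 to 0.061 is the narrowest of these genes. All 3 genes were called between no glucose and 3X glucose, with edgeR adjusted p of 0.00091 for Txnip, 0.00106 for Arrdc4 and 1.11e-05 for Klf10. In that comparison 136 genes were called in all (0.802%), 39 higher without glucose and 97 higher in 3X glucose. It uses none of the 1X libraries as a group, but this count depends on the block and on single libraries, with 2 genes called without the block. Leaving out 1 library gave 14, 6 and 7 genes without 3X passages 13, 15 and 16, and 77, 39 and 50 genes without 1X passages 13, 15 and 16, the latter through the passage effects and the spread that all groups share.

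The 3 genes were at their highest in 2-DG, which is given in 1X glucose. There Txnip was at 185, 166 and 154 CPM, Arrdc4 at 130, 147 and 130 CPM, and Klf10 at 106, 100.3 and 95.6 CPM. Of the 14 genes listed as glucose-sensing factors and targets, 12 were tested, and all 12 were bounded within 1.5-fold between 3X and 1X glucose. The share was 77.1% over all genes, but it rises with the level. The lowest mean among the 12 was 1.54 CPM (Gpd1), and in the level classes from 1 CPM up the share ran from 67.1% to 99.9%. Of the 12 genes, 6 were higher and 6 lower, 0 were called and the median log2 fold change was -0.0039, against 0.0038 over all genes tested. The factor genes Mlxip (0.11, SE 0.050), Mlx (0.018, SE 0.068) and Mlxipl (0.089, SE 0.17) gave no call either. The lowest in the list was Arrdc3, an arrestin of the same family, at 89.6, 91.7 and 87.7 CPM in 1X glucose and at 86.7, 67.3 and 65.5 CPM in 3X glucose. It differed by -0.30 on the log2 scale (SE 0.085), more in passages 15 and 16 than in passage 13. The other tested members, Elovl6, Gpd1, Khk, Rgs16 and Tkfc, had log2 fold changes between -0.043 and 0.095.

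**Figure D3:**
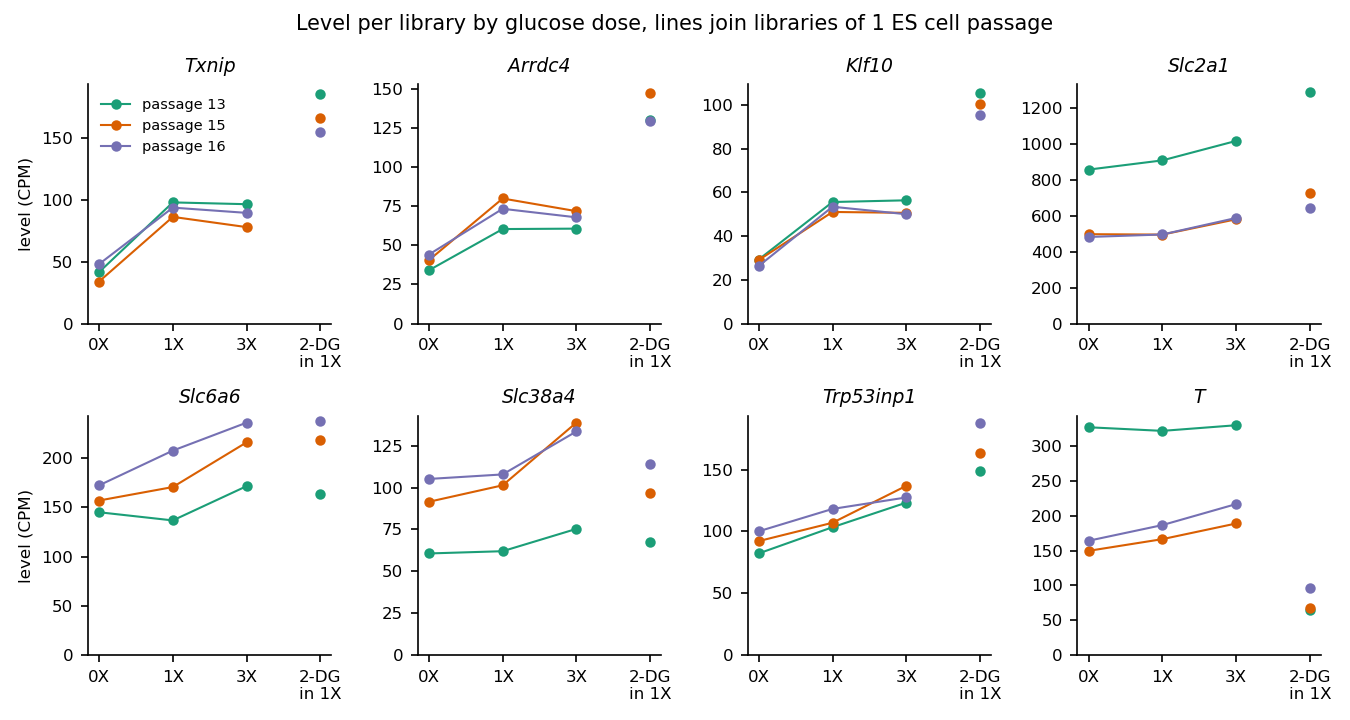
Level in each library (vertical axis, CPM from 0) by glucose dose in the medium and in 2-DG (horizontal axis) for 8 genes, with lines joining the libraries of 1 ES cell passage. Txnip, Arrdc4 and Klf10 climb from 0X to 1X glucose and stay level to 3X; Slc2a1, Slc6a6 and Slc38a4 are higher at 3X than at 1X in each passage, by 0.21 to 0.35 on the fitted log2 scale; and T differs more between passages than between glucose doses.

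The main glucose transporters stood higher in 3X than in 1X glucose. Because 0X and 3X glucose share the 1X libraries as their control, their values are given side by side only. Slc2a1, the glucose transporter GLUT1, was at 858, 498 and 483 CPM without glucose, at 909, 496 and 496 CPM in 1X glucose and at 1018, 581 and 588 CPM in 3X glucose. Between 1X and 3X glucose its log2 fold change was 0.21 (SE 0.042, 95% interval 0.12 to 0.31), and every alternative gave a value between 0.17 and 0.23. DESeq2 called it with an adjusted p of 0.000568, whereas edgeR gave 0.905. Slc2a3, the transporter GLUT3, was at 1069, 404 and 476 CPM in 1X glucose and at 1141, 516 and 591 CPM in 3X glucose. Its log2 fold change was 0.25 (SE 0.095), and -0.039 with the most abundant transcript alone. Between no glucose and 3X glucose, both transporters passed the threshold, with edgeR adjusted p of 0.032 for Slc2a1 and 0.0389 for Slc2a3. That comparison takes the same 3X libraries, and its calls depend on the block and on single libraries, as given above. Of 15 glucose and lactate transporters, 12 were tested, 10 were higher and 2 lower in 3X glucose, 4 were higher in all passages and 0 were called. Their median log2 fold change was 0.072, but -0.036 with the most abundant transcripts alone. The lactate carriers Slc16a1 (0.052, SE 0.044) and Slc16a3 (0.056, SE 0.11) and their chaperone Bsg (-0.031, SE 0.034) were all within 1.5-fold in their 95% intervals.

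All 25 tested glycolysis genes were bounded within 2-fold and 24 within 1.5-fold, with 16 higher, 9 lower and a median log2 fold change of 0.022. The most abundant, Pkm, the pyruvate kinase of the last step of glycolysis, was at 2366, 2026 and 1816 CPM in 1X glucose and at 2429, 2080 and 1896 CPM in 3X glucose. Its 95% interval was -0.024 to 0.12, and its value was 0.53 with the most abundant transcript alone. In the pentose phosphate pathway all 11 tested genes lay within 1.5-fold, and the highest fitted value was that of Pgd, a dehydrogenase of the oxidative branch (0.079, SE 0.031), which was 5.998 with the most abundant transcript alone. All 40 tested genes of pyruvate, citric acid cycle and glutamine metabolism were bounded within 1.5-fold, with a median of -0.00035. The sterol and fatty acid synthesis genes were 31 higher and 7 lower of 38, with a median of 0.024, and all 38 were bounded within 1.5-fold. Over all genes, the share within 1.5-fold was 97.5% from 10 to 30 CPM, 99.3% from 30 to 100 CPM and 99.9% above. The counts of bounded genes thus do not set these lists apart from other genes at such levels. Fatty acid synthase (Fasn) was at 771, 903 and 1016 CPM in 1X glucose and at 892, 988 and 1060 CPM in 3X glucose (log2 fold change 0.13, SE 0.067), but its value was -0.59 with the most abundant transcript alone.

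The hexosamine pathway, which makes the sugar nucleotide used for O-GlcNAc and for N-glycans, gave mostly lower values. Of 12 tested genes, 9 were lower and 3 higher in 3X glucose, 6 were lower in all passages against 14.8% of all genes, 0 were called and the median log2 fold change was -0.092 (-0.11 to -0.079 over the alternatives). Uap1l1, which resembles the pyrophosphorylase of the last step, was at 44.8, 36.4 and 43.6 CPM in 1X glucose and at 36.3, 29.6 and 37.1 CPM in 3X glucose, lower by 0.28 on the log2 scale (95% interval -0.40 to -0.15). Gnpda1, a deaminase that returns glucosamine phosphate to glycolysis and was picked after its values were seen, was at 37.5, 28.7 and 32.6 CPM in 1X glucose and at 33.0, 26.6 and 29.9 CPM in 3X glucose (log2 fold change -0.14, SE 0.044). Uap1 itself (0.049, SE 0.061) and Ogt, the O-GlcNAc transferase (0.026, SE 0.039), were on the other side of 0. In mannose and GDP-sugar metabolism, 11 of 15 tested genes were lower, the median was -0.029 and 14 were bounded within 1.5-fold. The exception was Dpm1, the synthase of dolichol-phosphate-mannose, at 6.48, 17.8 and 4.71 CPM in 1X glucose and at 4.29, 20.1 and 17.6 CPM in 3X glucose, with a 95% interval of -0.68 to 1.55.

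The osmotic response, by which cells in a concentrated medium take up or make compatible solutes, was mostly higher but without a call. Of the 18 genes listed, 16 were tested, 11 were higher and 5 lower, 7 were higher in all passages against 17.3% of all genes, 4 had an unadjusted p under 0.05 against 5.16% of all genes, and 0 were called. The median log2 fold change was 0.047, all 16 were bounded within 2-fold and 14 within 1.5-fold. Slc6a6, the taurine transporter, was at 137, 171 and 208 CPM in 1X glucose and at 172, 216 and 236 CPM in 3X glucose (log2 fold change 0.28, SE 0.059, 95% interval 0.15 to 0.41). It was called by DESeq2 (adjusted p = 0.0038) and gave 0.044 with the most abundant transcript alone. Slc38a2, a carrier of neutral amino acids, was at 297, 367 and 352 CPM in 1X glucose and at 318, 418 and 390 CPM in 3X glucose (0.15, SE 0.032). Slc5a3, the myo-inositol transporter, was at 20.4, 29.7 and 30.1 CPM in 1X glucose and at 23.2, 33.9 and 33.9 CPM in 3X glucose (0.18, SE 0.062). These 3 carriers were higher in 3X glucose in 3 of 3 passages, and Slc6a12, the betaine transporter, was listed but not tested. The kinase Oxsr1, which acts on ion carriers, differed by 0.097 (SE 0.032). Sgk1 (0.20), Hspa4l (0.067), Pnpla6 (0.027) and Wnk1 (0.019) were also above 0. Stk39 (-0.012), Impa1 (-0.011), Slc12a2 (-0.0057) and Aqp1 (-0.15, at a mean of 0.344 CPM) were below 0. Nfat5, the transcription factor of the hypertonic response, was at 161, 238 and 244 CPM in 1X glucose and at 170, 241 and 232 CPM in 3X glucose (0.0098, SE 0.050), and gave 1.10 with the most abundant transcript alone. Akr1b3, the aldose reductase that makes sorbitol from glucose and is a classic target of NFAT5, was at 147, 140 and 140 CPM in 1X glucose and at 138, 135 and 147 CPM in 3X glucose (-0.026, 95% interval -0.11 to 0.057). Hspa1a and Hspa1b, a pair of near-identical heat shock genes whose reads cannot be told apart with certainty, differed by 0.31 (SE 0.16) and 0.24 (SE 0.12) at 1.56 to 3.87 CPM. The 6 tested genes of the polyol pathway were all bounded within 1.5-fold, 3 higher and 3 lower, with a median of 0.0060 and the highest value in Dcxr (0.097, SE 0.12).

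The amino acid transporters as a list were 16 higher and 8 lower of 24, with 10 higher in all passages against 17.3% of all genes, 5 at an unadjusted p under 0.05 against 5.16% of all genes, and 0 called. Slc38a4 and Slc38a2 belong to it, and the highest fitted value was that of Slc7a8 (0.47, SE 0.17) at about 1 CPM, between 0.684 and 1.22 CPM over the 6 libraries. The enzymes of amino acid synthesis gave a median of 0.015 over 23 genes, with Psat1, of serine synthesis, at -0.026 (SE 0.047). All 23 were bounded within 1.5-fold, against 97.5% to 99.9% of all genes in the level classes from 10 CPM up. In the insulin and IGF pathway, 20 of 25 genes were higher and the median was 0.058. There Igfbp5, a binding protein of insulin-like growth factors, was at 65.8, 25.4 and 15.2 CPM in 1X glucose and at 80.5, 31.5 and 17.0 CPM in 3X glucose (0.26, SE 0.055, 95% interval 0.14 to 0.38).

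The p53 targets, genes of cell cycle arrest, repair and apoptosis, were, of the 37 lists, the one with the largest share of members that moved 1 way in all passages. All 17 listed genes were tested, 16 were higher in 3X glucose, 15 were higher in all passages against 17.3% of all genes, and 10 had an unadjusted p under 0.05 against 5.16% of all genes. None was called by edgeR in the comparison of 3X with 1X glucose. The median log2 fold change was 0.14, with 0.10, 0.20 and 0.10 within passages 13, 15 and 16, and between 0.092 and 0.17 over the alternatives. Trp53inp1, a stress protein induced by p53, was at 103, 107 and 118 CPM in 1X glucose and at 123, 137 and 128 CPM in 3X glucose, without overlap. Its log2 fold change was 0.24 (SE 0.054, 95% interval 0.12 to 0.36), with an adjusted p of 0.0449 by DESeq2. Cdkn1a, the cell cycle inhibitor p21, which was picked after its values were seen, was at 119, 107 and 110 CPM in 1X glucose and at 133, 129 and 132 CPM in 3X glucose, again without overlap (0.23, SE 0.058). Ccng1, the most abundant member, was at 572, 545 and 588 CPM in 1X glucose and at 624, 627 and 628 CPM in 3X glucose (0.14, SE 0.048). Mdm2, the ligase that degrades p53, differed by 0.062 (SE 0.041), and Fas, the only member below 0, by -0.027 (SE 0.32) at about 1 CPM.

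**Figure D4:**
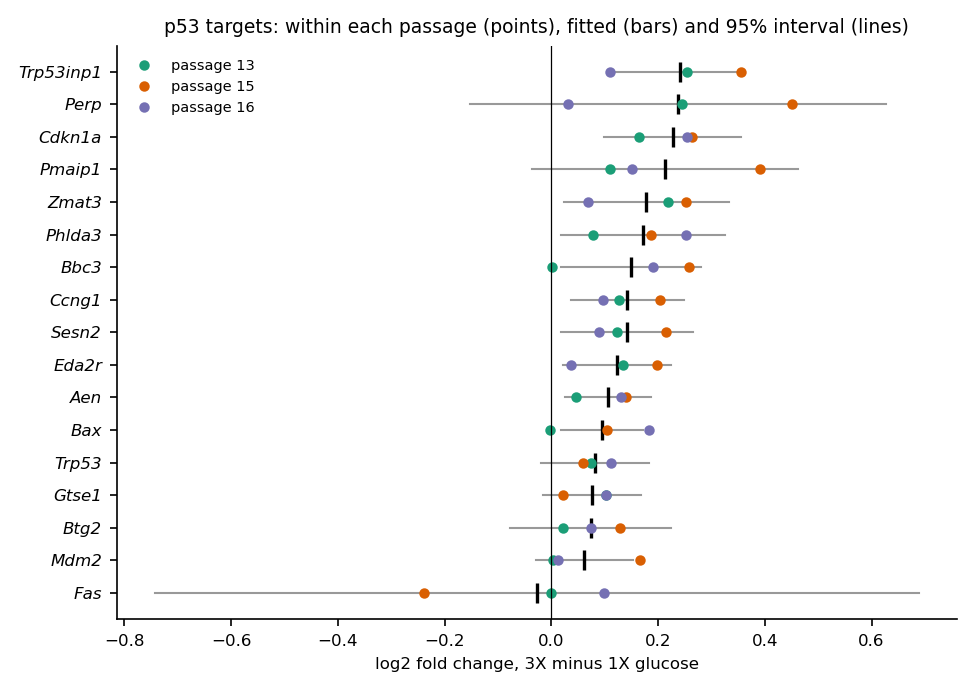
Log2 fold change of 3X against 1X glucose (horizontal axis) for the 17 p53 targets (vertical axis, ordered by the fitted value): coloured points are the differences within each passage, black bars the fitted values and grey lines their 95% intervals. All fitted values but that of Fas are above 0, and the highest, that of Trp53inp1, is 0.24.

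Of the p53 targets, Trp53inp1, Cdkn1a, Eda2r, Ccng1 and Aen were called between no glucose and 3X glucose (5 of 17, against 0.802% of all genes), all higher in 3X glucose. That comparison takes the same 3X libraries, so it does not stand apart from the values above. Its calls depend on the block and on single libraries, as given with Txnip. Trp53inp1 was at 82.2, 92.2 and 100.1 CPM without glucose, and the edgeR adjusted p was 0.00751. Cdkn1a was at 111, 91.0 and 93.4 CPM without glucose, with an adjusted p of 0.0182 by edgeR. In 2-DG, Trp53inp1 was at 149, 164 and 188 CPM, above every 3X library, while Cdkn1a was at 108, 114 and 115 CPM, below every 3X library.

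Genes of the posterior mesoderm and of the body axis gave no call by edgeR between 3X and 1X glucose. Many of them were bounded only loosely, and the passages differed. T (Brachyury), the mesodermal factor of the primitive streak, was at 322, 167 and 187 CPM in 1X glucose and at 330, 189 and 217 CPM in 3X glucose (log2 fold change 0.14, SE 0.21, 95% interval -0.33 to 0.61). The gap between passages 13 and 15 within a group was larger than any difference between groups. Sox2 was at 126, 52.8 and 52.2 CPM in 3X glucose, which is 0.21 above 1X glucose (SE 0.076, 95% interval 0.044 to 0.38). Wnt3a, a ligand of the tail bud, was at 90.8, 35.3 and 40.8 CPM in 1X glucose and at 91.6, 44.2 and 52.7 CPM in 3X glucose (0.22, SE 0.26). Mesp2, which sets the borders of somites, was at 6.98, 67.5 and 47.0 CPM in 1X glucose and at 8.91, 41.9 and 31.8 CPM in 3X glucose, with a 95% interval of -1.13 to 0.32 that reaches past 2-fold lower. Of 22 tested primitive streak and tail bud genes, 16 were higher and 6 lower, 0 were called and the median was 0.11. Within the passages the median was 0.040, 0.18 and 0.22. Within 2-fold 20 of these genes were bounded and within 1.5-fold 10, against 90.1% and 77.1% of all genes. Of 22 presomitic and paraxial mesoderm genes, 15 were lower and 7 higher, 0 were called and the median was -0.061. Within the passages the median was 0.046, -0.083 and -0.12. Within 2-fold 19 of these genes were bounded and within 1.5-fold 12. The streak median was 0.25 and the presomitic median -0.16 without the 1X library of passage 13.

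The Hox genes followed the same passages. The members of paralog groups 1 to 4 had a median of -0.025 (12 genes, all bounded within 1.5-fold). Those of groups 5 to 8 had 0.12 (10 of 11 higher, 9 bounded within 1.5-fold). Those of groups 9 to 13 had 0.24 (5 of 6 tested higher, 1 bounded within 1.5-fold). The last was the largest median of the 37 lists, with 0.035 within passage 13, 0.27 within passage 15 and 0.26 within passage 16, and 0.17 to 0.35 over the alternatives. Hoxb9 was at 439, 257 and 236 CPM in 1X glucose and at 468, 299 and 280 CPM in 3X glucose (0.19, SE 0.073), and Hoxc6 at 152, 61.2 and 43.9 CPM against 157, 76.9 and 56.5 CPM (0.23, SE 0.19). Hoxd9 was lower by 0.21 (SE 0.20). None of the Hox genes tested passed the threshold by edgeR.

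Feedback targets of FGF and Wnt signals were mostly higher in 3X glucose, whereas BMP and Nodal targets were 7 higher and 7 lower (median log2 fold change 0.0051) and genes of the Notch pathway 8 higher and 7 lower (0.012). All 14 targets of FGF feedback were higher in 3X glucose, 8 of them in all passages against 17.3% of all genes, 0 had an unadjusted p under 0.05 against 5.16% of all genes, and the median was 0.10 (0.072 to 0.12 over the alternatives). Etv4, a transcription factor induced by FGF, was at 245, 155 and 175 CPM in 1X glucose and at 262, 179 and 196 CPM in 3X glucose (0.15, SE 0.12). Spry4, an inhibitor in the same loop, was at 55.4, 51.9 and 69.9 CPM against 62.7, 57.5 and 75.8 CPM (0.15, SE 0.15). Dusp6, the phosphatase of ERK, differed by 0.012, with a 95% interval of -0.081 to 0.11. Of 15 Wnt feedback targets, 12 were higher and the median was 0.062. Axin2, which marks Wnt activity, was at 160, 147 and 157 CPM in 1X glucose and at 175, 157 and 166 CPM in 3X glucose (0.099, SE 0.14), with -0.12 for its most abundant transcript alone. Lef1 was at 147, 284 and 275 CPM in 1X glucose and at 161, 267 and 253 CPM in 3X glucose (-0.026, SE 0.12), so that its direction in passage 13 was opposite to that in the others.

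Mitosis genes lay slightly below 1X glucose, within narrow bounds. Of 20 genes, 17 were lower, 10 of them in all passages against 14.8% of all genes, 3 had an unadjusted p under 0.05, 0 were called and the median was -0.036 (-0.058 to -0.025 over the alternatives). Top2a, the topoisomerase of dividing cells, was at 827, 881 and 804 CPM in 1X glucose and at 808, 814 and 742 CPM in 3X glucose (-0.089, 95% interval -0.18 to -0.0018). All 20 mitosis genes and all 26 DNA replication genes were bounded within 1.5-fold, the latter with a median of -0.0012, which is 6.65e-05 with median-of-ratios scaling. In the level classes from 10 CPM up, 97.5% to 99.9% of all genes were bounded in this way.

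**Figure D5:**
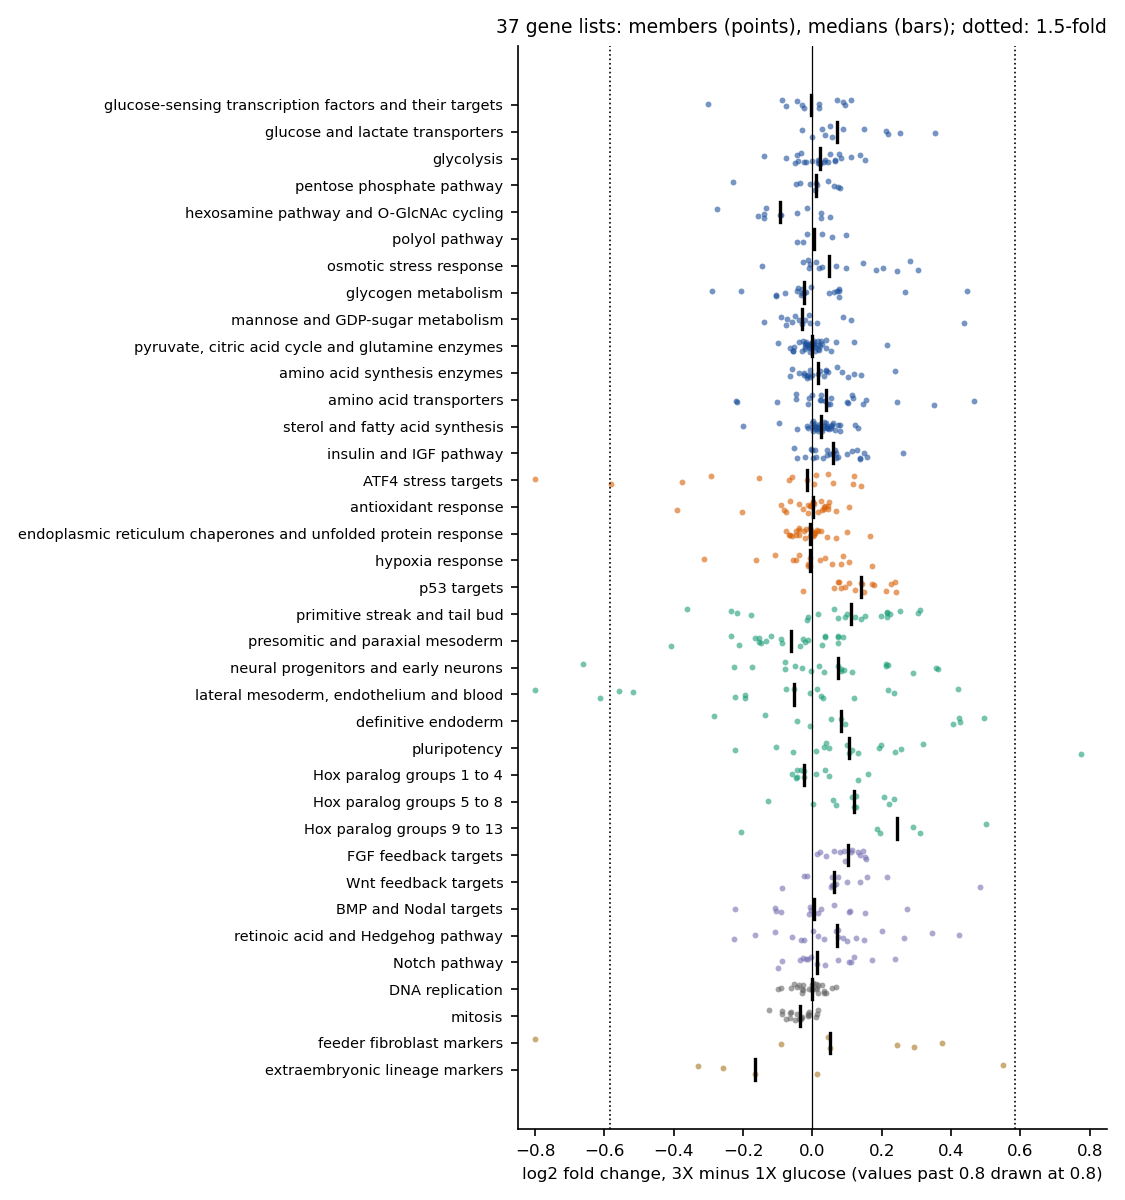
Log2 fold change of 3X against 1X glucose (horizontal axis) for the tested members of 37 gene lists (vertical axis), with points for genes, black bars for list medians and dotted lines at 1.5-fold; values beyond 0.8 are drawn at 0.8. Nearly all points of the metabolic lists lie between the dotted lines, the p53 targets lie to the right of 0 apart from Fas, and the lists of lowly expressed lineage genes spread most.

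For comparison, the same fit called 6588 genes between 2-DG and 3X glucose (38.8%), 3306 higher in 2-DG and 3282 lower. Without the block this count was 2586. All 26 tested chaperones of the endoplasmic reticulum and genes of the unfolded protein response were called there, whereas none was called between 3X and 1X glucose, where all 26 were bounded within 2-fold and 25 within 1.5-fold. Hsp90b1, the most abundant of them, was at 710, 759 and 715 CPM in 1X glucose and at 685, 748 and 693 CPM in 3X glucose (-0.039, SE 0.058). Between 3X and 1X glucose, 97.5% to 99.9% of all genes in the level classes from 10 CPM up were bounded within 1.5-fold. Single genes were tested only in the fit across all genes.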

How the data were processed

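PolyA RNA was sequenced in 12 libraries, 3 in each of 4 groups, with a directional kit. For each library the authors deposited estimated counts, as whole numbers, of 120312 RefSeq transcripts between which StringTie had divided the reads. The submitters' processing notes name Trim Galore, HISAT2, SAMtools, Picard, StringTie and DESeq2 and the build mm10, and versions and the use of strand in counting are not given in the sources used here. Tables of the authors' own comparisons (means, fold changes, errors and p-values from DESeq2) were not used.

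Counts were added up by gene symbol through the RefSeq table of GRCm38.p6, which named all 120312 transcripts, 13 of them mitochondrial and matched by protein accession. This gave 38911 genes, 18307 of them with more than 1 transcript, and edgeR's filterByExpr kept 16966. The fit took all 12 libraries, with the group and the ES cell passage as terms (edgeR 4.0.16 in R 4.3.3, glmQLFit, glmQLFTest, TMM). Tests were two-sided with Benjamini-Hochberg adjustment over all genes and a threshold of 0.05. Standard errors came from the F statistic. Equivalence was tested with 2 one-sided tests against 2-fold and 1.5-fold, adjusted in the same way. The passage was used as a block because the labels give it for each library, and libraries of 1 passage deviated together (correlations of 0.583, 0.332 and 0.269). No pair of libraries shared more than 1.84% of its values among genes with a mean of at least 10 counts. The common dispersion was 0.0063 with the block and 0.0316 without it. CPM were computed by edgeR on the TMM-scaled library size, and differences within a passage used a prior count of 1. Scripts were tested on simulated data.

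Gene lists (37) were written from general knowledge and are described by counts and medians, with no set test. The comparison and the lists were chosen with earlier results of these data known. Genes named are the tested members of the lists of glucose-sensing genes, glucose and lactate transporters, polyol and osmotic genes, and from other lists the highest, the lowest and the most abundant member. To these come the 10 genes with the lowest p in each direction, the 5 widest intervals at 10 CPM or more, and genes that the study stained or measured, and a gene that the rule chose is not reported here. Alternatives were no block, the 6 or 9 libraries, median-of-ratios factors, no filter, a mean of at least 100 counts, DESeq2 1.42.0, limma-voom 3.58.1, the most abundant transcript alone, a test per transcript and leaving out each 1X and 3X library.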

Additional observations from a re-analysis of the deposited data

How the results depend on the processing

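The number of genes called between 3X and 1X glucose was 0 with edgeR on all 12 libraries and the passage as a block. It was also 0 without the replicate block (178 genes at an unadjusted p under 0.05), with median-of-ratios factors, with no filter, with a mean of at least 100 counts, with the most abundant transcript alone and per transcript (0 of 46254, with 1456 at an unadjusted p under 0.05). It was 3 with only the 6 libraries (Gm26944, Gm3636, Slc38a4), 1 with the 9 libraries without 2-DG (Gm26944), 6 with DESeq2 (Gm26944, Raph1, Slc2a1, Slc38a4, Slc6a6, Trp53inp1) and 1 with limma-voom (Slc15a3). Leaving out 1 library gave 0 to 0 calls, 14588 to 14790 genes bounded within 2-fold and 12274 to 12530 within 1.5-fold. The median of Hox paralog groups 9 to 13, the list with the largest median in the main fit, was then 0.194 to 0.351. Without the block, 14434 and 11245 genes were bounded within 2-fold and 1.5-fold. With the most abundant transcript alone, 10480 of 16819 genes were bounded within 2-fold and 6727 within 1.5-fold, and the cause was not tested. Of the 206 named genes, 183 were bounded within 2-fold, and 174 to 181 when 1 library was left out.

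Between 2-DG and 3X glucose, 2586 genes were called without the block, and 4797 to 6435 when 1 library was left out. Between no glucose and 3X glucose the count was 2 without the block, 415 with DESeq2 and 6 to 77 when 1 library was left out, where fewer samples enter the fit. The correlation of the differences in passages 13 and 16 was -0.0156, and that of passages 15 and 16 was 0.398, without the genes listed at 0 in 1 library and at 10 CPM or more in another, an alternative added after seeing the data. Of 3040 values of single genes under the alternatives, 9 were called, all in the direction first given, and 91 of the 206 genes had the opposite sign in at least 1 alternative. List medians gave 554 values, of which 57 moved by more than the spread between passages and 51 had the opposite sign. Scaling by median-of-ratios factors shifted the median of all genes by 0.00131. Of the genes under 0.3 CPM, 15.1% were bounded within 2-fold at this depth, and 68.9% of those from 0.3 to 1 CPM.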

Other observations

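Lists of lineage and pathway genes not described with the comparison gave 0 calls by edgeR between 3X and 1X glucose, and their medians were small beside the spread of their members. Neural progenitor and early neuron genes were 13 higher and 8 lower of 21 tested, with a median log2 fold change of 0.075 and 18 bounded within 2-fold. Sox1, an early neural factor, was at 7.86, 4.79 and 4.08 CPM in 1X glucose and at 8.76, 5.39 and 3.82 CPM in 3X glucose in passages 13, 15 and 16 (0.083, SE 0.13). Pluripotency genes were 14 higher and 3 lower of 17 (median 0.10), led by Fgf5, a ligand of the primed state, at 0.417, 0.421 and 0.432 CPM in 1X glucose and at 0.870, 0.488 and 0.832 CPM in 3X glucose (0.77, SE 0.32), but -0.12 with its most abundant transcript alone. Definitive endoderm genes were 7 higher and 4 lower of 11 (median 0.082), and Foxa2, a factor of endoderm and notochord, was at 0.351, 0.947 and 2.23 CPM in 1X glucose and at 0.464, 1.65 and 2.47 CPM in 3X glucose (0.43, SE 0.17, and 4.53 with its most abundant transcript alone). Lateral mesoderm, endothelium and blood genes were 7 higher and 10 lower of 17 (median -0.053), of which 11 were bounded within 2-fold.

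Medians were 0.0051 for BMP and Nodal targets, 0.070 for the retinoic acid and Hedgehog pathway and 0.012 for the Notch pathway. There Jag2, a Notch ligand, was at 15.7, 7.97 and 10.6 CPM in 1X glucose and at 18.4, 9.27 and 12.7 CPM in 3X glucose (0.24, SE 0.094), with -0.22 for its most abundant transcript alone. Among stress lists, medians were -0.015 for ATF4 targets, 0.0023 for the antioxidant response and -0.0067 for the hypoxia response, and glycogen metabolism gave -0.024. Nqo1, a quinone reductase of the antioxidant response, was at 1.52, 1.92 and 3.89 CPM in 1X glucose and at 1.16, 1.28 and 3.28 CPM in 3X glucose (-0.39, SE 0.12). Of the markers of other cell types, 7 of 10 feeder fibroblast genes were tested (median 0.052, with 5 bounded within 2-fold) and 5 of 13 extraembryonic genes (median -0.17, with 1 bounded within 2-fold).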
